A study of Mus musculus with 20 samples.

Results

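The Hnrnp genes encode heterogeneous nuclear ribonucleoproteins, and 10 of them were followed here through maps of N6-methyladenosine (m6A), a methyl mark on adenosines inside RNA. The 10 genes were Hnrnpa1, Hnrnpa2b1, Hnrnpd, Hnrnpdl, Hnrnpc, Hnrnph1, Hnrnpk, Hnrnpl, Hnrnpm and Hnrnpu, out of 21951 protein-coding genes in the GENCODE M21 annotation of the mm10 mouse genome. A peak, a stretch of RNA enriched by an m6A antibody, was counted for a gene when its summit, the point of highest enrichment, lay inside the gene body on the gene's own strand. This rule gave 241 peaks of the 438180 listed in 10 libraries.

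The libraries were made from RNA of the chromatin fraction of C57BL/6 mouse embryonic stem cells, cultured with LIF and the inhibitors CHIR99021 and PD0325901. The 5 groups were a Mettl3 control, the Mettl3 knockouts KO1 and KO2, a Ythdc1 control and a Ythdc1 cKO, a knockout abbreviated in this way by the labels, with 2 immunoprecipitated libraries each. Mettl3 is the enzyme that places m6A in the nucleus, and Ythdc1 is a nuclear protein that binds m6A. How the genes were inactivated, whether KO1 and KO2 are single clones, and the genotype of each control are not given in the sources used here. All 10 input libraries were not analysed here. The sources do not say that replicate libraries derive from separate cultures, so every p-value below covers no more than the scatter among these libraries, possibly technical.

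hnRNP proteins coat RNA while it is being transcribed and steer splicing, packaging, export and stability of the transcript. hnRNP A2/B1 and hnRNP C have been described as proteins whose RNA binding responds to m6A, and hnRNP U is a scaffold that ties RNA to chromatin. Several family members control their own amount through alternative exons or retained introns that expose the transcript to nonsense-mediated decay. In chromatin-associated RNA, introns and unspliced ends of such transcripts are present beside mature exons.

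The libraries listed between 40980 and 46761 peaks each, and every list held only peaks of at least 150 bp with a −log10 q of at least 2.0. Read totals per library are not given in the sources used here. As to depth, the commonest background, solved from the deposited values as a relative measure, was 14.9 to 20.03 reads on the plus strand. It was highest in the cKO libraries. Of 8 embryonic stem cell markers, 7 or 8 had a peak in every library, while 4 of 6 fibroblast markers had one in the Mettl3 controls and 1 or 2 of 6 in the other groups. Col3a1 and Thy1 had none in any library. The fibroblast count thus differed between the Mettl3 controls and knockouts, and the part of other cells in the results was not tested. A peak list holds no expression, so the loss of Mettl3 or Ythdc1 itself was not checked.

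The 10 genes held 16 and 23 peaks in the Mettl3 controls, 22 and 29 for KO1, and 30 and 34 for KO2. The Ythdc1 controls held 25 and 23, and the cKO libraries 18 and 21. Both KO2 libraries lay above both Mettl3 controls, KO1 overlapped them, and both cKO libraries lay below both Ythdc1 controls. The means were 32 ± 2.83 peaks in KO2 against 19.5 ± 4.95 in the Mettl3 control (SD, n = 2 each), a ratio of 1.64 (two-sided exact permutation p = 0.333, adjusted over 8 tests 0.444). The cKO mean was 19.5 ± 2.12 against 24 ± 1.41 (SD, n = 2 each), a ratio of 0.813 (exact permutation p = 0.333, adjusted 0.444). With 2 libraries against 2, 0.333 is the smallest p the test can give, so neither difference can pass a threshold of 0.05.

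The KO1, KO2 and joint comparisons share the 2 Mettl3 controls. For KO1 the mean was 25.5 ± 4.95 peaks (SD, n = 2, exact permutation p = 0.667, adjusted 0.667). The 4 libraries of both Mettl3 knockouts together had 28.75 ± 4.99 peaks (SD, n = 4, exact permutation p = 0.2, adjusted 0.444, where 0.0667 is the smallest possible). Over all protein-coding genes, KO2 had 0.985 times the control's number of peaks and the cKO 0.881 times. KO2 had close to the control's number of peaks over all genes, and more in the Hnrnp genes. These sets differ in local background, which was over 50 reads at 84.6% of the Hnrnp peaks and 16.8% of all. The bases covered by peaks in the 10 genes gave the same order, with 7576 and 8943 bases in the Mettl3 controls and 11468 and 12037 in KO2. They were 11322 and 10676 bases for the Ythdc1 controls and 8380 and 9294 for the cKO libraries (exact permutation p = 0.333 for each pair of groups). One feature of the lists also differed between groups and, like these counts, was highest in KO2. Peaks in protein-coding genes with a background over 50 reads numbered 4131 and 4914 in the Mettl3 controls, 5236 and 5220 for KO1, 7022 and 6350 for KO2, 5883 and 4929 for the Ythdc1 controls and 5077 and 4773 for the cKO. By this feature both KO1 and KO2 lay above the Mettl3 controls, while the cKO overlapped its own controls. Hnrnp peaks with such a background numbered 16 and 20 in the Mettl3 controls, 18 and 21 for KO1 and 28 and 30 for KO2. They numbered 21 and 19 in the Ythdc1 controls and 16 and 15 for the cKO. The part of this feature in the counts of the Hnrnp genes was not tested.

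**Figure D1:**
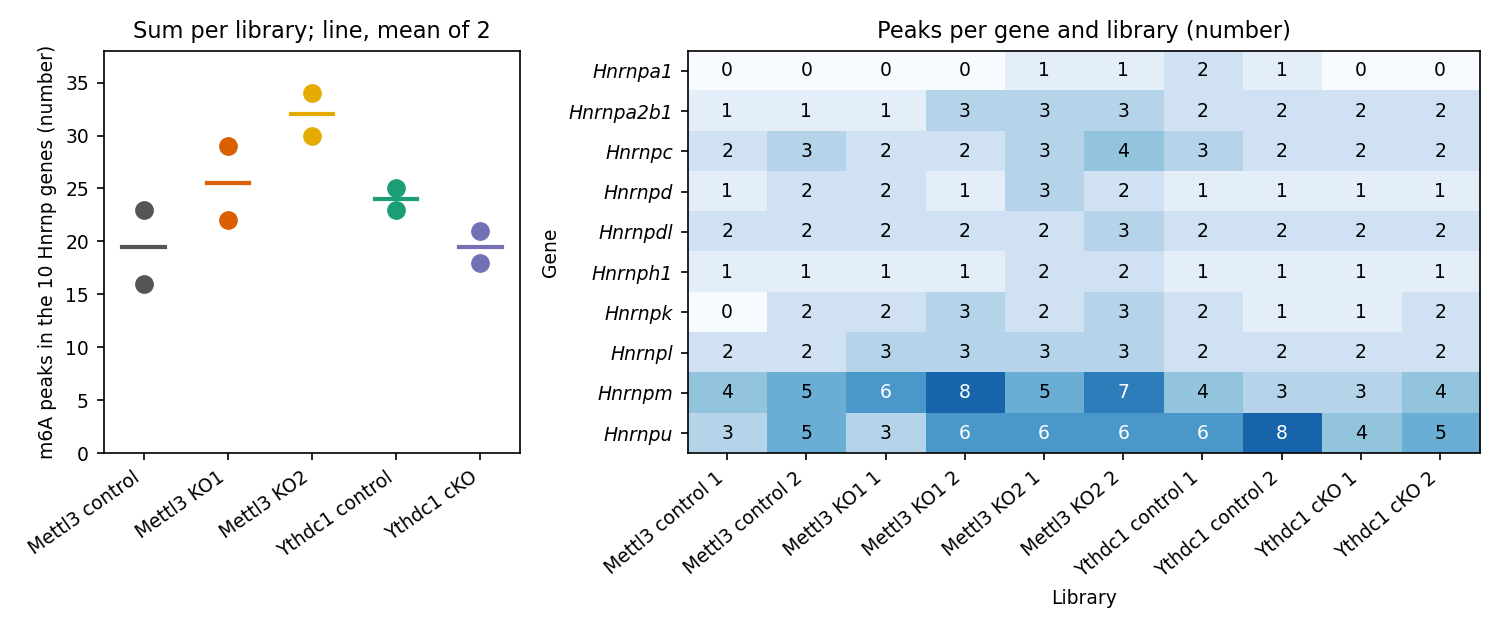
Peaks in the 10 Hnrnp genes. Left, the sum over the genes for each library (points) with the mean of the 2 libraries of a group (line); the 2 KO2 libraries, at 30 and 34, sit above the Mettl3 controls at 16 and 23. Right, the number of peaks for each gene (rows) and library (columns); Hnrnpm and Hnrnpu hold the most and Hnrnpa1 the fewest.

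Across the libraries the peaks merged into 45 regions, counting overlapping peaks of the same strand as 1. Of these, 14 regions in 7 genes had a peak in all 10 libraries, 8 regions had one in a single library, and 5 had one in both KO2 libraries and nowhere else. By the place of their median summit, the 14 shared regions comprised 7 in coding exons, 5 in introns, 1 in a 5′ UTR and 1 in an exon of a transcript outside the basic annotation. Fold enrichment, given beside peaks from here on, is the authors' ratio of reads over background at the summit. It ranks peaks within a list and is not compared between lists as a change.

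The A/B-type genes encode proteins with paired RNA-recognition motifs that bind UAG-containing or AU-rich RNA. Hnrnpa1, a general splicing repressor, had the fewest peaks. It had none in either Mettl3 control, KO1 or cKO library, 1 in each KO2 library and 2 and 1 in the Ythdc1 controls. The folds were low, at 1.39 and 1.55 in KO2 and 2.62 and 2.41 in the Ythdc1 controls, over a local background of 134 to 203 reads. The summits lay in an intron in KO2 and in a coding exon in the Ythdc1 controls, within chr15:103241853-103242399 on the plus strand of mm10. Hnrnpa1 has many near-identical processed copies in the genome, and how reads that match several places were treated is not given in the sources used here.

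Hnrnpa2b1, which encodes a protein that has been described to bind m6A-marked nuclear RNA, had 1 peak in each Mettl3 control, 1 and 3 for KO1, 3 and 3 for KO2, and 2 in each Ythdc1 control and cKO library. Its region near the start, at the junction of exon 1 and intron 1 (chr6:51469532-51469813, minus strand), had a peak in 8 libraries. It was 1.86- and 2.64-fold in the Mettl3 controls, 1.76- and 2.53-fold for KO1, 2.16- and 2.73-fold for the Ythdc1 controls and 2.75- and 3.22-fold for the cKO. KO2 was the only group without it. A second region spanned the start of exon 3 (chr6:51467015-51467406) and was listed in 7 libraries, among them all of KO2, the Ythdc1 control and the cKO, but in neither Mettl3 control. Its folds lay between 1.78 and 2.31.

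Hnrnpd, which encodes the mRNA decay factor AUF1, had 1 region in all 10 libraries, in exon 1 (chr5:99978407-99978942, minus strand). The summit lay in the 5′ UTR in 8 libraries and in the coding part of that exon in both Ythdc1 controls. Its fold was 1.49 and 2.63 in the Mettl3 controls, 2.63 and 5.76 for KO1, 3.60 and 3.46 for KO2, 5.37 and 4.51 for the Ythdc1 controls and 2.77 and 2.66 for the cKO. The lowest value was that of a Mettl3 control and the highest that of a KO1 library, whose replicate was as low as the other control. Hnrnpd had 3 and 2 peaks in KO2 against 1 and 2 in the Mettl3 controls.

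Hnrnpdl, a close relative of Hnrnpd whose transcripts include forms subject to nonsense-mediated decay, held the strongest enrichment of the 10 genes. A region of 1203 to 1558 bp covered its start (chr5:100038274-100039852, minus strand) in every library. Its summit lay upstream of the main coding transcript, in an exon of Hnrnpdl-201, which is annotated as a nonsense-mediated decay transcript. The fold was 6.50 and 5.45 in the Mettl3 controls, 5.01 and 5.05 for KO1, 7.24 and 7.01 for KO2, 9.72 and 12.02 for the Ythdc1 controls and 7.06 and 8.07 for the cKO. These values stood between the 60.7th and the 95.2nd percentile of their own lists, so the region ranked in the upper part of every list. The widths did not overlap between the Mettl3 and Ythdc1 sets, at 1203 to 1324 bp in the 6 Mettl3 libraries and 1494 to 1558 bp in the 4 Ythdc1 libraries. The second Hnrnpdl region, at the junction of intron 4 and exon 5 (chr5:100036891-100037294), was also listed in all 10, at 1.76- to 4.2-fold.

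Hnrnpc encodes a protein that binds uridine tracts of nascent RNA as a tetramer. It had 2 regions in all 10 libraries, at low folds. The first, deep inside intron 2 (chr14:52088953-52089301, minus strand), ranged from 1.59- to 2.39-fold. The second, around the start of exon 9 (chr14:52075027-52075514), ranged from 1.40- to 3.19-fold. Its summit lay beside that exon start in 7 libraries, in exon 8 in both KO2 libraries and in the intron between them in KO1 library 2. The lowest values of both regions were those of the cKO libraries, 1.61 and 1.59 for the first and 1.40 and 1.68 for the second.

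Hnrnph1, which encodes a protein that binds G-rich RNA through quasi-RRM domains, had exactly 1 peak in each of 8 libraries and 2 in each KO2 library. The constant peak lay at the start of exon 4 (chr11:50379362-50379593, plus strand). Its fold was 2.78 and 2.95 in the Mettl3 controls, 2.88 and 3.27 for KO1, 3.39 and 3.19 for KO2, 4.08 and 4.54 for the Ythdc1 controls and 3.63 and 3.36 for the cKO. The additional KO2 peak, at 2.79- and 2.64-fold, lay at the start of exon 7 (chr11:50382463-50382828).

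Hnrnpk, whose KH-domain protein binds C-rich RNA, had no peak in 1 of the Mettl3 controls. Its main region, in intron 1 (chr13:58400368-58400535, minus strand), was missing from the list of Mettl3 control 1 and was 5.65-fold in control 2. It was 4.72- and 4.46-fold for KO1, 6.42- and 7.71-fold for KO2, 6.01- and 6.17-fold for the Ythdc1 controls and 4.24- and 5.68-fold for the cKO. A neighbouring region at the end of intron 2 was listed in 7 libraries at 2.13- to 2.95-fold.

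Hnrnpl encodes a regulator of alternative splicing that binds CA repeats. It had 2 peaks in each control and cKO library and 3 in each of the 4 Mettl3 knockout libraries. It was the only one of the 10 genes in which every Mettl3 knockout library exceeded both controls, where 5.47% of protein-coding genes with a peak did so. None had fewer in every one, against 8.06%. The third peak was not at 1 place. In KO2 it lay in both libraries at the end of intron 2 (chr7:28813148-28813329, plus strand, 3.81- and 3.93-fold), in KO1 library 1 it lay elsewhere in that intron (2.08-fold), and in KO1 library 2 it lay in the 3′ UTR (3.37-fold).

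Both constant Hnrnpl regions were among the stronger ones. The region in exon 2 (chr7:28810912-28811195) was 2.65-fold in Mettl3 control 1 and 4.36- to 6.77-fold in the other 9 libraries. The region in intron 7 (chr7:28815381-28817618) was the widest in the family, at 2032 to 2238 bp. It covered most of the 3108 bases of the intron, and its summit lay in an exon of Hnrnpl-206 and Hnrnpl-212, both annotated as retained-intron transcripts. Its fold was 4.0 and 5.19 in the Mettl3 controls, 4.34 and 5.35 for KO1, 5.61 and 5.46 for KO2, 3.93 and 4.88 for the Ythdc1 controls and 5.26 and 5.01 for the cKO, with 478 to 609 reads at the summit. Both KO2 and both cKO values were above those of their controls, in lists that share no common scale. A peak on the opposite strand overlapped this region in all 10 libraries, and the annotation places Gm44702 on the opposite strand within Hnrnpl.

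Hnrnpm, whose protein binds GU-rich RNA and regulates alternative splicing, is the longest of the 10 genes at 40628 bp. It had 4 and 5 peaks in the Mettl3 controls, 6 and 8 for KO1, 5 and 7 for KO2, 4 and 3 for the Ythdc1 controls and 3 and 4 for the cKO. KO1 lay above both controls, and KO2 overlapped them. Hnrnpm and Hnrnpl were the 2 genes of which this was true in KO1, against 16.5% of protein-coding genes, and none was lower, against 16.9%. Its 3 constant regions were around the end of exon 1, with summits in exon 1 in KO2 and in intron 1 in the other groups, at exon 2 and in the 803-base coding exon 14 (chr17:33649576-33650526, minus strand). Around the end of exon 1 (chr17:33684856-33685470) the fold was 3.53 and 3.39 in the Mettl3 controls, 2.80 and 3.80 for KO1 and 2.85 and 4.59 for KO2. It was 6.66 and 7.76 for the Ythdc1 controls and 5.39 and 7.31 for the cKO. At exon 2 it ranged from 2.65 to 3.99. In exon 14 the fold was 2.57 and 2.96 in the Mettl3 controls, 2.02 and 1.84 for KO1 and 1.57 and 1.83 for KO2. There it was 3.86 and 3.66 for the Ythdc1 controls and 3.17 and 4.06 for the cKO. KO1 library 2 had another peak within this region, at 2.71-fold, and the value above is that of its peak at the summit shared with 7 other libraries. The region was listed in all 4 Mettl3 knockout libraries, with the KO2 summits elsewhere in the same exon. March2 overlaps the same strand of Hnrnpm.

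Hnrnpu had 3 and 5 peaks in the Mettl3 controls, 3 and 6 for KO1, 6 and 6 for KO2, 6 and 8 for the Ythdc1 controls and 4 and 5 for the cKO. KO2 lay above both its controls and the cKO below both of its own. Of its regions listed in all 10 libraries, that at the start of exon 14 (chr1:178329218-178329514) had the highest folds in all controls. It was 2.66- and 3.42-fold in the Mettl3 controls, 2.69- and 2.76-fold for KO1 and 3.79- and 3.56-fold for KO2. The same region was 3.67- and 3.33-fold in the Ythdc1 controls and 2.47- and 2.48-fold for the cKO. The region in exon 1 (chr1:178336962-178337765, minus strand) carried the most reads of any member peak, 665 to 750 at the summit. Its local background was 259 to 429 reads, so the fold was only 1.74 to 2.62, and it ranked at or below the 7.69th percentile in every list. No summit in any library, in any gene, exceeded 750 reads, and 49 summits stood at exactly that value. The exon 1 region was at this value in KO2 library 2. What sets this highest value was not tested. Cox20 overlaps Hnrnpu on the opposite strand, and a peak on that strand was listed at exon 1 in all 10 libraries.

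**Figure D2:**
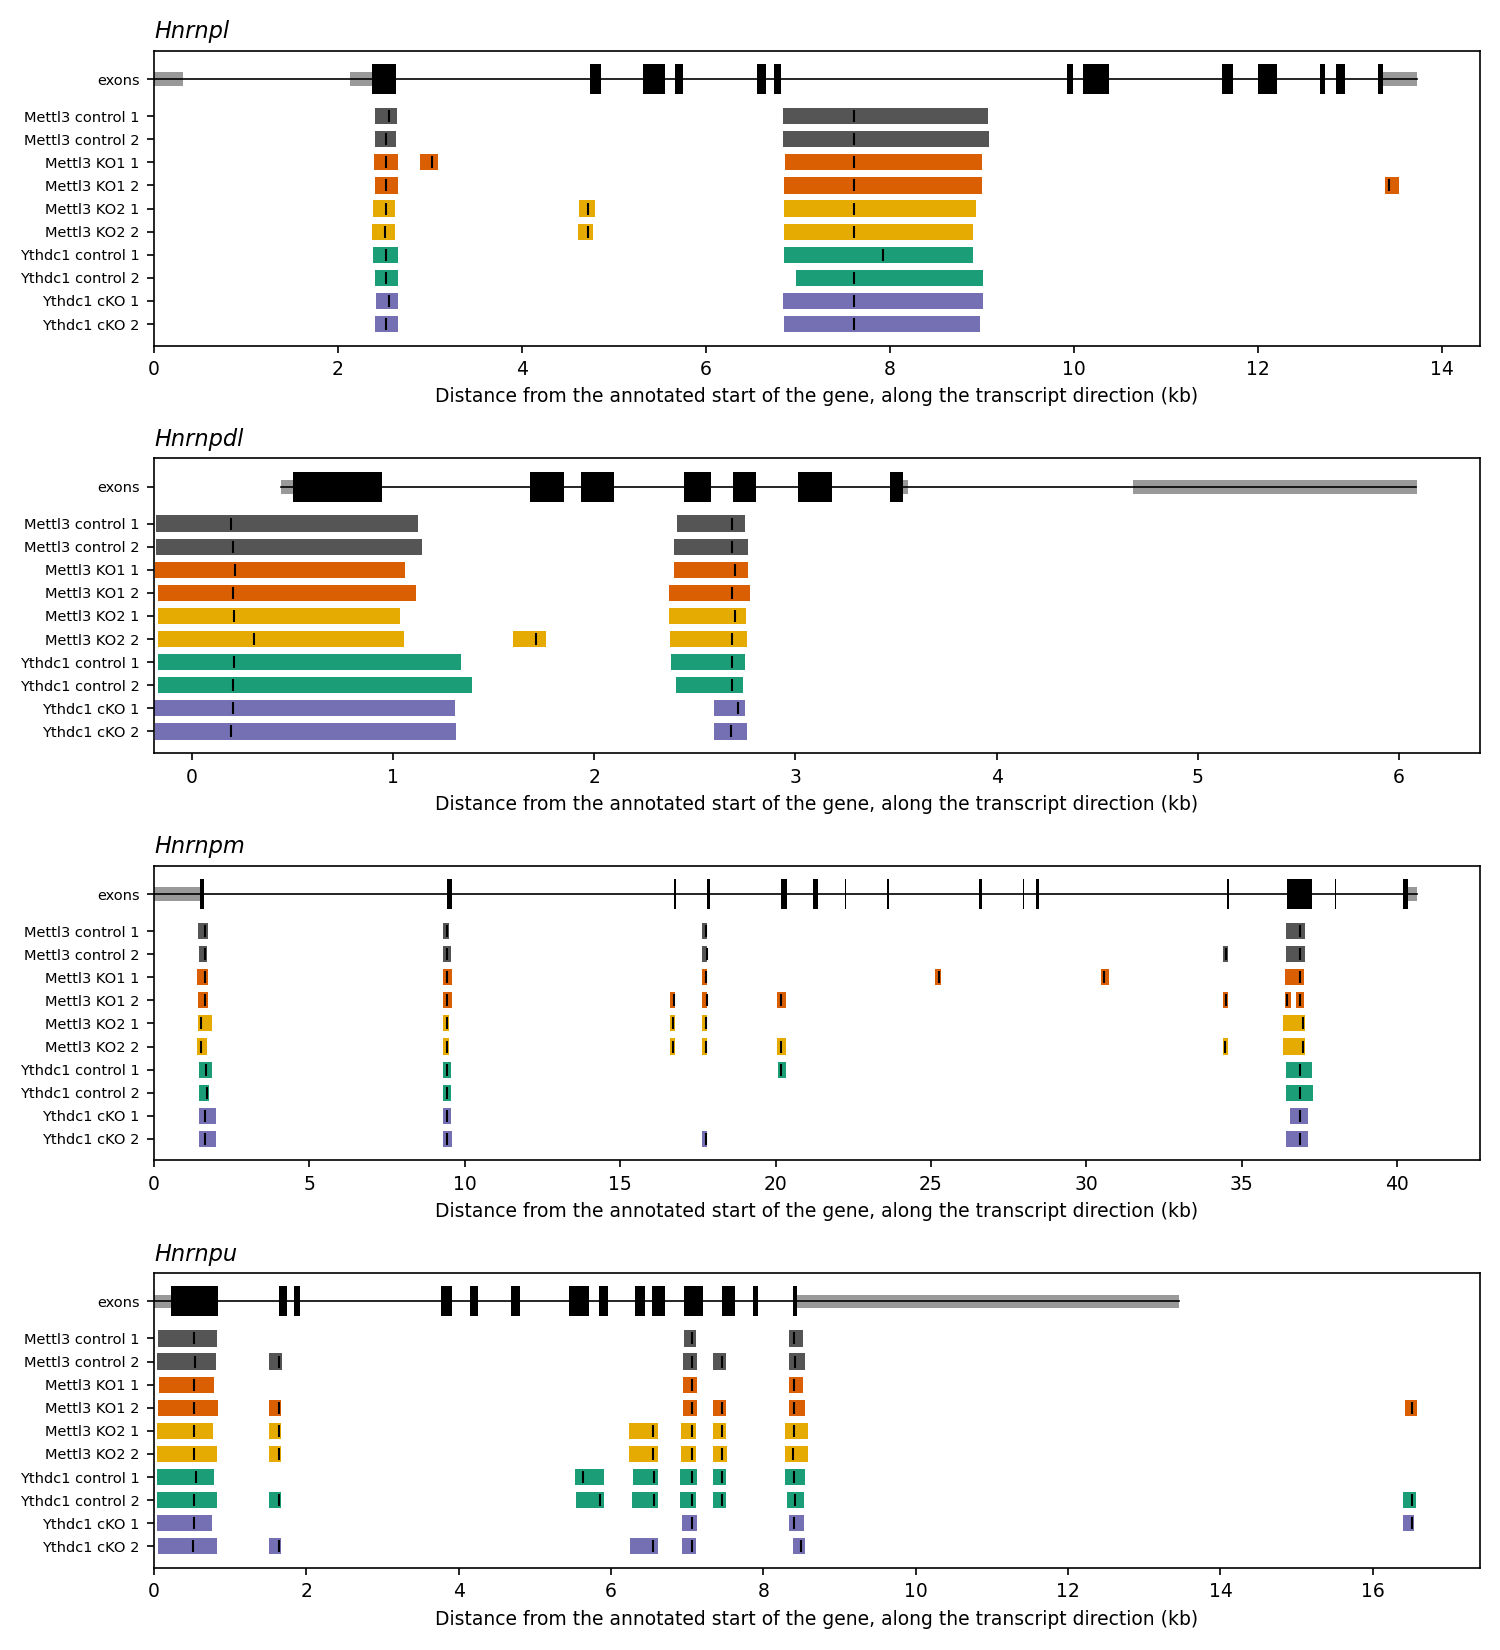
Peaks of Hnrnpl, Hnrnpdl, Hnrnpm and Hnrnpu by library. The horizontal axis is the distance from the annotated gene start in kb, each bar is a peak coloured by group, the tick is its summit, and the top row shows the main transcript with coding exons as tall black boxes and untranslated exons as low grey boxes. The wide block in Hnrnpl intron 7 and the block over the Hnrnpdl start are present in every library, while many of the peaks listed in some libraries only are narrow and lie next to exon starts.

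**Figure D3:**
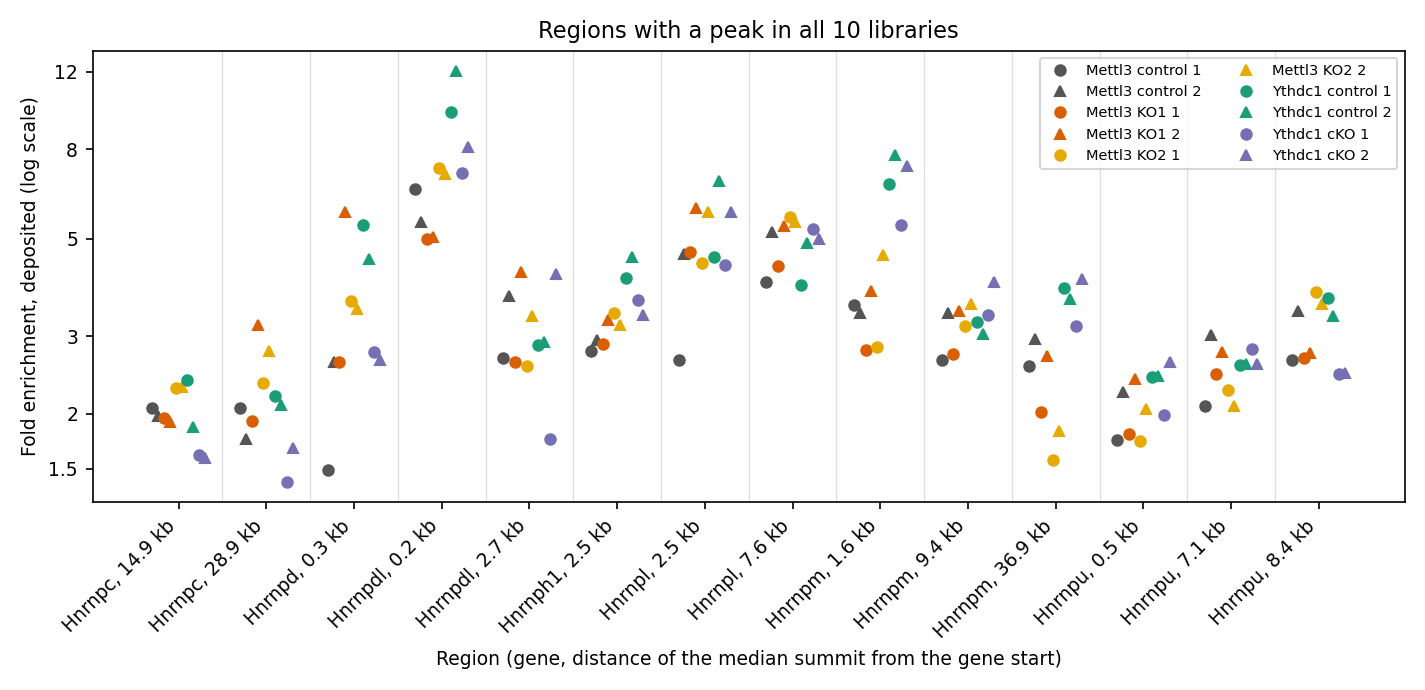
Deposited fold enrichment (log scale) of the 14 regions with a peak in all 10 libraries. Each point is a library, coloured by group, with circles for replicate 1 and triangles for replicate 2; regions are named by gene and by the distance of their median summit from the gene start. The Hnrnpdl start region is the highest, at 5.01 to 12.02, and the lowest value is 1.40, in Hnrnpc.

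Low folds in these genes went with high local background. The deposited fold and p-value of each peak were solved for the reads at the summit and the background, and for all 241 peaks a whole-number pile-up fitted the deposited −log10 p within 0.002. A background over 50 reads was found at 204 of the 241 peaks (84.6%), against 16.8% of all peaks in protein-coding genes. The median background per library was 79.9 to 132 reads for the Hnrnp genes and 17.4 to 23.0 for all protein-coding genes. The median pile-up at the summit was 234 to 365 reads for the Hnrnp genes and 113 to 135 for all. By fold, 149 of the 241 peaks (61.8%) stood in the lowest 20% of their list, against 21.9% of all. These peaks thus rest on many reads, but few of them stand far above the recovered background, whose source the known MACS2 settings do not give.

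**Figure D4:**
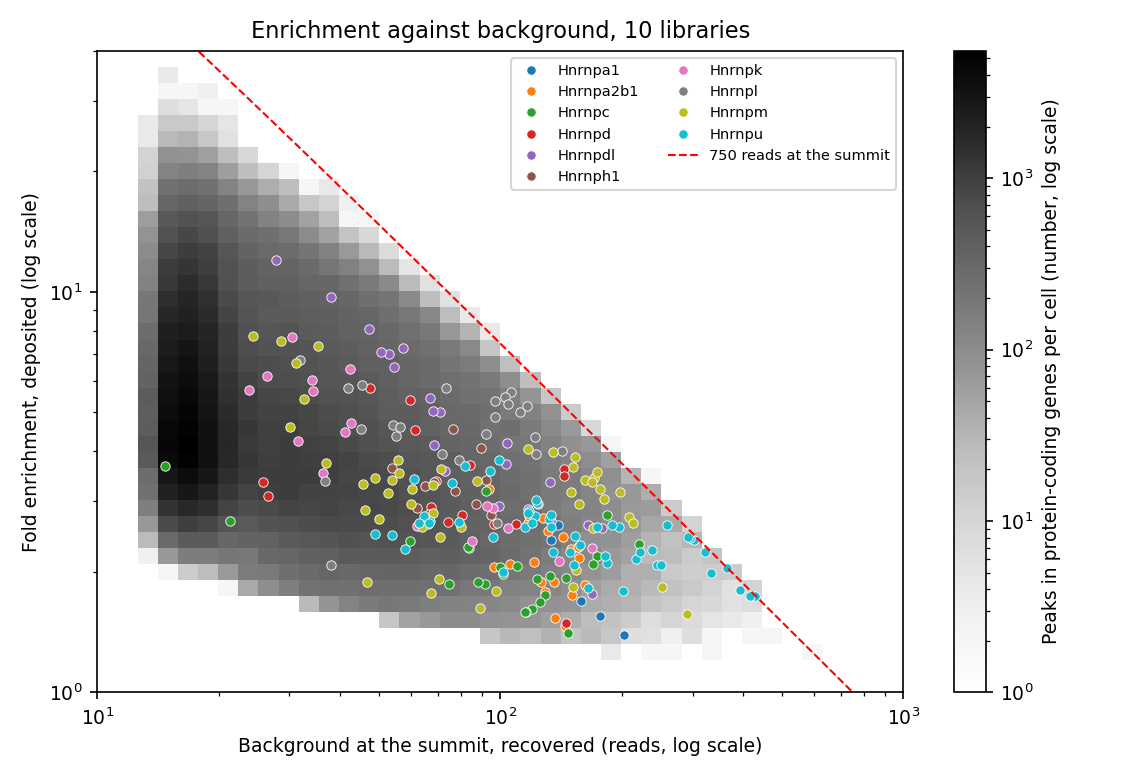
Deposited fold enrichment against the recovered background at the summit (both log scales) for the 241 peaks of the Hnrnp genes (coloured points) over all peaks in protein-coding genes of the 10 libraries (grey, number per cell). The dashed line marks 750 reads at the summit, the largest value in every list; the Hnrnpu points at the right lie closest to it.

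The summits of the Hnrnp genes clustered at 3′ splice sites, a pattern looked for after their positions had been seen. A summit lay within 25 nt of an annotated internal exon start at 108 of the 241 peaks (44.8%), against 11.3% of all peaks in protein-coding genes. Among peaks of protein-coding genes with a background over 50 reads the share was 20.4%. Within 10 nt the shares were 30.3% for the Hnrnp genes and 6.66% for all. At exon ends, the 5′ splice sites, the shares within 25 nt were 4.56% and 1.56%. Exon starts and ends of all annotated transcripts counted, and no allowance was made for how many a gene has.

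To show where these summits fall, the spliced sequence around the exon start is printed for 11 junctions, 5′ to 3′ from the GENCODE M21 transcripts. The 12 transcript bases before the exon are in lower case and the first 12 of the exon in capitals. For Hnrnpm exon 5 the lower-case bases reach past the preceding exon, which is shorter than 12 bases. The first 5 junctions were listed in all 10 libraries, the next 3 in 7, and the last 3 in 5, 6 and 6.
Hnrnph1 exon 4: gctttttttctgACTGCAAAATTC
Hnrnpm exon 2: gggcccgaagggTGAAGAACGACC
Hnrnpu exon 14: tggcagcagggtCAATTCTGGGGT
Hnrnpdl exon 5: ggttctgggaagTGCGAAATCAAA
Hnrnpc exon 9: ggggatgaccagCTGGAGTTGAAG
Hnrnpa2b1 exon 3: acagactgtgtgGTTATGCGGGAT
Hnrnpm exon 5: aaggggatgtgcTGTTGTTGAATT
Hnrnpk exon 3: atggtgaatttgGTAAACGCCCTG
Hnrnpu exon 10: attctggatcagACAAATGTGTCT
Hnrnpu exon 12: tcagaggaggagCTCCTGGGAATC
Hnrnpu exon 2: agcaggcgggagGAGACGGCAAAA
The median summit stood 4 nt past the exon start in Hnrnph1, 7 nt past it in Hnrnpm exon 2 and 8 nt past it in Hnrnpu exon 14. It stood on the first base of Hnrnpa2b1 exon 3, at 0 nt. In Hnrnpu it was 19 nt past the start of exon 10, 2 nt past that of exon 12 and 1 nt before that of exon 2. It stood 2 nt before the exon start in Hnrnpdl, 6 nt before it in Hnrnpc, 12 nt before it in Hnrnpm exon 5 and 23 nt before it in Hnrnpk. Summits before an exon start lie in the preceding intron, which the spliced sequence does not show.

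For KO2 and the cKO the differences in peak number lay mainly near exon starts. For KO1 only the number away from exon starts was above both controls in both libraries. The Hnrnp genes had 6 and 9 summits within 25 nt of an exon start in the Mettl3 controls, 6 and 13 for KO1, 17 and 20 for KO2, 13 and 11 for the Ythdc1 controls and 5 and 8 for the cKO. Elsewhere they had 10 and 14 in the Mettl3 controls, 16 and 16 for KO1, 13 and 14 for KO2, 12 and 12 for the Ythdc1 controls and 13 and 13 for the cKO. Near exon starts KO2 and its controls did not overlap, nor did the cKO and its controls, while KO1 overlapped its controls. Away from them KO2 overlapped its controls, KO1 lay above both, and the cKO libraries had 1 peak more than theirs. The same share moved over all protein-coding genes. It was 7.51% and 8.28% in the Mettl3 controls, 8.42% and 9.56% for KO1, 12.4% and 13.2% for KO2, 16.3% and 15.6% for the Ythdc1 controls and 10.3% and 10.8% for the cKO. Among the Hnrnp peaks it was 37.5% and 39.1%, 27.3% and 44.8%, 56.7% and 58.8%, 52% and 47.8%, and 27.8% and 38.1% for the same groups in turn. In both sets KO2 lay above its controls and the cKO below its own. The part of the shift over all genes in the counts of the Hnrnp genes was not tested.

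**Figure D5:**
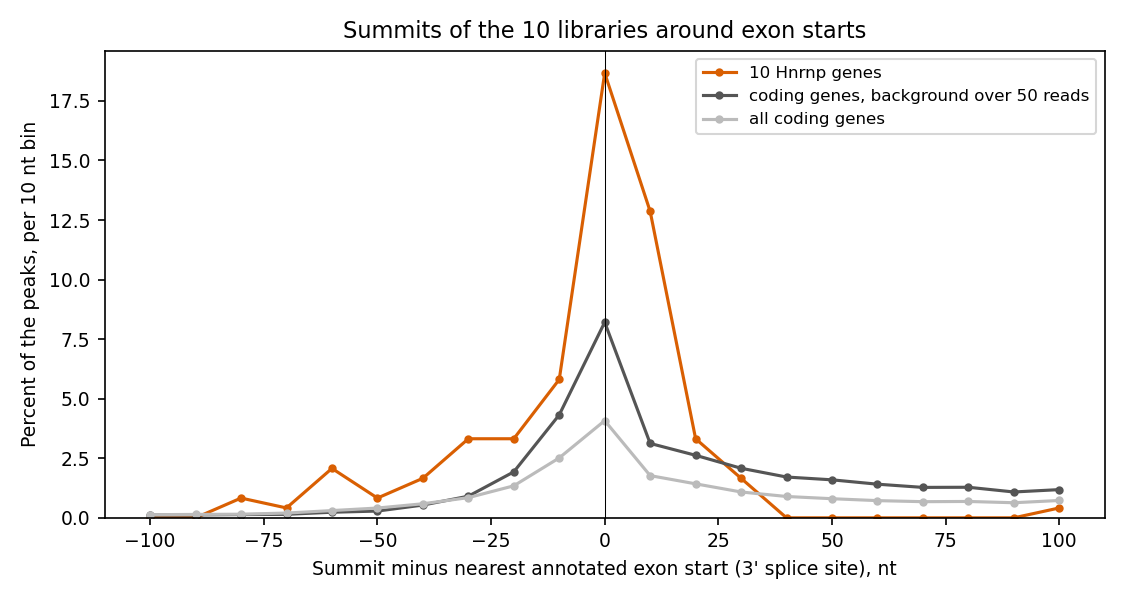
Position of summits relative to the nearest annotated exon start, in bins of 10 nt, as percent of the peaks of each set over the 10 libraries. The Hnrnp genes (orange) peak at the exon start above protein-coding genes with a background over 50 reads (dark grey) and all protein-coding genes (light grey).

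By class of summit, 107 of the 241 peaks (44.4%) lay in coding exons, 104 (43.2%) in introns, 11 (4.56%) in 5′ UTRs and 6 (2.49%) in 3′ UTRs. The other 13 lay in transcripts outside the basic annotation, 10 of them the Hnrnpdl start region and 3 at the 3′ side of Hnrnpu. Over all protein-coding genes the shares were 30.1% in coding exons, 48.6% in introns and 14.3% in 3′ UTRs. The 3′ UTR, among the places where m6A of mRNA is known to concentrate, held at most 1 Hnrnp peak in any library. This count leaves out summits near a stop codon that lie in coding sequence or an intron. At Hnrnpu exon 14 the median summit lay 8398 nt from the gene start, and the coding sequence ends at 8440. At Hnrnpc exon 9 these positions were 28862 and 28945. Distance to the stop codon was not summarised over all peaks.

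The m6A consensus was rarer at these summits than at others. GGAC, its core, lay within 50 nt of 35 of the 161 Hnrnp summits that fall in an exon of any annotated transcript (21.7%), against 49.5% of 172003 such summits in protein-coding genes. The search used the sense strand of the transcript only. The wider consensus DRACH, in which D is A, G or T, R is A or G and H is A, C or T and which includes GGAC before A, C or T, was found at 62.7% and 91.3%. Of 27 regions with their median summit in an exon, 4 held GGAC within 50 nt of it. They are printed with 10 bases on either side, GGAC in capitals, because no other of these 27 had this core within 50 nt of the median summit. Of the 11 exon-start regions printed above, 7 could be searched and had none in that window.
Hnrnpdl start, chr5:100039456-100039479, minus strand: gccggcgcgaGGACaaaacacgcg
Hnrnpl intron 7, chr7:28816104-28816127, plus strand: actctcccaaGGACcctcagaatt
Hnrnpu exon 1, chr1:178337280-178337303, minus strand: tcgccgctctGGACggcgaccaga
Hnrnpd exon 3, chr5:99967347-99967370, minus strand: gccttagctgGGACaccacaaaga
The A of the printed GGAC stood 9 nt before the median summit at the Hnrnpdl start, 37 nt before it in Hnrnpl intron 7 and 22 nt before it in Hnrnpu exon 1. These 3 regions were listed in all 10 libraries, the 4 Mettl3 knockout libraries included. In Hnrnpd exon 3, listed in KO2 only, the A stood 24 nt past the summit. The GGAC in Hnrnpu exon 1 is followed by G and so does not match DRACH. The windows at the Hnrnpdl start and in Hnrnpd exon 3 held 2 GGAC each, of which 1 is printed. A match is a description of the letters, not a site of methylation. Intronic summits outside annotated transcripts were not searched, for want of a genome sequence here.

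Region by region, the Mettl3 knockouts kept nearly all that the controls had. Both Mettl3 controls had a peak in 16 Hnrnp regions, and 15 of them had a peak in all 4 knockout libraries (93.75%), where 65.7% of regions in protein-coding genes were kept. None was lost from all 4, where 8.52% were lost, and none of 17 was gained, where 4.3% were. Among regions of protein-coding genes with a background over 50 reads, 83.2% were kept and 2.13% lost. With peaks of at least 3-fold, 2 regions were kept, but Mettl3 control 1 then had only 3 peaks in these genes. With KO1 alone all 16 were kept, against 73.6% of all and 89.1% of those with a background over 50 reads. None of 18 regions present in both KO1 libraries was gained, that is, absent from both controls, against 13% and 7.23%. Leaving out 1 library loosens the rule for a gain: 7 were gained without KO1 library 1, 3 without KO1 library 2 and 2 without Mettl3 control 2.

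In KO2, 10 of 29 regions were gained (34.5%), where 12.6% of protein-coding gene regions and 9.92% of those with a background over 50 reads were gained. They lay in 8 of the 10 genes. Hnrnpa2b1 had 3 and Hnrnpa1, Hnrnpc, Hnrnpd, Hnrnph1, Hnrnpl, Hnrnpm and Hnrnpu had 1 each. Of the 10, 9 had their median summit within 25 nt of an exon start, as did 31.4% of the regions gained in all protein-coding genes. The tenth was the Hnrnpa1 region. In Hnrnpa2b1 they lay at exon 3, at the end of intron 7 (chr6:51464514-51464668, 2.31- and 2.44-fold) and over exon 10 (chr6:51463228-51463610, 1.89- and 1.46-fold), with the 2 summits on either side of that exon. In Hnrnpc the gained region was at chr14:52084362-52084676 (1.59- and 1.87-fold), in the 5′ UTR of the alternative transcript Hnrnpc-202. In Hnrnpd it was exon 3 (3.38- and 2.91-fold), in Hnrnpm the region at chr17:33670099-33670264 (2.96- and 3.21-fold) and in Hnrnpu exon 10 (2.97- and 2.76-fold).

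Of the 10, only the Hnrnpl region was at least 3-fold in both KO2 libraries. When peaks under 3-fold were left out of every list, 4 regions counted as gained. The other 3, at the Hnrnpd start, Hnrnph1 exon 4 and Hnrnpm exon 5, had control peaks under 3-fold and were kept when all peaks were used. Of the 10 places, 5 had a peak in no library outside KO2, those in Hnrnpa2b1 at the end of intron 7 and over exon 10, Hnrnpd exon 3, Hnrnph1 exon 7 and Hnrnpl intron 2. The other 5 also had one in at least 1 library of KO1 or the Ythdc1 groups. By gene, 5 of the 10 genes had more peaks in both KO2 libraries than in either control, Hnrnpa1, Hnrnpa2b1, Hnrnph1, Hnrnpl and Hnrnpu, against 16.9% of protein-coding genes. No Hnrnp gene had fewer, against 16.2%. Of 16 control regions KO2 kept 15 (93.75%), against 75.4% of all and 89.4% of those with a background over 50 reads. The single region lost, against 14.4% and 4.82%, was the intron 1 region of Hnrnpa2b1.

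In the cKO, 17 of 21 Hnrnp regions were kept (81.0%, against 71.7%) and 3 were lost (14.3%, against 18.1% of all and 12% of those with a background over 50 reads). None of 17 was gained, against 14.9% of all and 4.04% of those with a background over 50 reads. The share lost was near the background. The lost regions were Hnrnpa1 exonic (chr15:103241853-103242399, 2.62- and 2.41-fold in the controls), Hnrnpu exon 12 (chr1:178330293-178330455, 2.24- and 2.24-fold) and a Hnrnpu region around intron 7 with its summits in coding exons (chr1:178331888-178332274, 1.82- and 2.45-fold). Hnrnpa1 and Hnrnpu were the 2 genes with fewer peaks in both cKO libraries than in either control, where 27.1% of protein-coding genes had fewer. No Hnrnp gene had more, against 11.9%. Leaving out 1 library loosens the rule for a loss and gave 3 to 6 lost regions, with 6 without Ythdc1 control 2.

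A list of 17 further genes of hnRNP proteins and their relatives was counted in the same way. They held 33 and 32 peaks in the Mettl3 controls, 43 and 44 for KO1, 44 and 40 for KO2, 39 and 35 for the Ythdc1 controls and 25 and 27 for the cKO. All 4 Mettl3 knockout libraries lay above both controls, and both cKO libraries below theirs. In all 4 knockout libraries 1 of 26 control regions was lost, the single region of Rbmx, an X-linked RNA-binding protein gene. That is against 8.52% of all regions in protein-coding genes. Of 29 regions, 2 were gained, against 4.3%, 1 in Raly and 1 in Hnrnpf. With KO1 alone 8 of 39 regions were gained (20.5%, against 13%) and with KO2 alone 8 of 36 (22.2%, against 12.6%). In the cKO 8 of 31 regions were lost (25.8%, against 18.1%), in 6 genes, among them 2 each in Ptbp1 and Hnrnpab, and 1 of 22 was gained, against 14.9%.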

How the data were processed

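Peak lists of 10 m6A immunoprecipitations of chromatin-associated RNA were used. Per the labels' protocols, RNA was depleted of ribosomal RNA, given a spike-in, fragmented and enriched with the EpiMark kit, and stranded libraries were made. The build was mm10 and the tools were Trimmomatic 0.38, HISAT2 2.1.0, CASAVA and MACS2, per the submitters' processing notes. The options of MACS2, any use of the inputs among them, are not given in the sources used here.

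Per peak, the authors deposited a display score, a fold enrichment (a ratio), −log10 p- and q-values, and the summit offset. Peaks were listed per library and strand. Peaks on contigs outside the main chromosomes (17 to 35 per library) were left out.

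The 10 genes and the lists were chosen with earlier results of these data known. Every gene is named, with each region lost or gained and the strongest kept ones; other genes are named where all knockout libraries of a comparison lost or gained a region, at most 5. Same-strand peaks of a comparison that overlapped by at least 1 bp were merged. A region was lost when both controls and no knockout library had a peak, gained in the reverse case, and kept when all had one. Summits were placed by GENCODE M21. Fold and p-value were solved for a whole-number pile-up over a Poisson background. Peak numbers and covered bases were compared by exact two-sided permutation over libraries, with Benjamini-Hochberg adjustment over 8 tests. Regions are not replicates and were not tested. The alternatives were peaks of −log10 q of at least 5, peaks of at least 3-fold, merging at 50% overlap, assignment to genes by overlap, only genes free of same-strand overlaps, values per 10000 listed peaks, other motif windows, the replicate block, and leaving out each library. The window around exon starts and the background over 50 reads were chosen after the data were seen. Scripts used Python 3.11.15 with pandas 2.3.3, numpy 2.4.6, scipy 1.17.1 and matplotlib 3.10.9, and were tested on simulated peaks.

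Same-numbered libraries of different groups did not deviate together (r of −0.0174 to 0.0327 across 12186 genes, which are not independent replicates).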

Additional observations from a re-analysis of the deposited data

Results flagged for a closer look

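The number of peaks in the 10 genes went in opposite directions in KO2 and in the cKO, in every library of each against its own controls. The difference of means was 12.5 peaks for KO2 and −4.5 for the cKO, and the bases covered differed by 3493 and −2162. As ratios, KO2 had 1.64 times its control's peaks in the 10 genes and 0.985 times over all protein-coding genes. The cKO had 0.813 times in the 10 genes and 0.881 times over all. Peaks of protein-coding genes with a background over 50 reads numbered 7022 and 6350 in KO2 against 4131 and 4914 in its controls. They numbered 5077 and 4773 in the cKO against 5883 and 4929 in its controls. Opposite directions were also seen for Hnrnpa1, with 1 peak more in KO2, and for Hnrnpu, with 2 more in KO2, while both had fewer in the cKO. Of all protein-coding genes, 16.9% had more peaks in both KO2 libraries and 27.1% fewer in both cKO libraries than in either control. The difference between the effects was not tested.

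Peaks on the strand opposite to the 10 genes, which no comparison used, numbered 4 and 4 in the Mettl3 controls and 5 and 6 in KO2, a mean of 5.5. KO1 had 4 and 3, the Ythdc1 controls 2 and 4, and the cKO 2 and 2. The same count over all genes was not made. Both KO2 libraries had an opposite-strand peak in Hnrnpd (5.90- and 4.96-fold), which no other library had, and a second one in Hnrnpu, where Cox20 lies on that strand.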

How the results depend on the processing

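All 84 alternatives of the 8 tested differences kept their direction, with exact permutation p from 0.0667 to 1. Leaving out 1 library gave differences in peak number of 5.75 to 12.75 for both Mettl3 knockouts, 2.5 to 9.5 for KO1, 9 to 16 for KO2 and −6 to −3 for the cKO. With the replicate block the differences were 9.25, 6, 12.5 and −4.5 peaks. Each replicate number held the same share of every group, so these had to equal the main differences. The block is therefore no check of them, and its settings among the 84 alternatives could not change direction. Nor could leaving out 1 library for KO2 or the cKO, since both libraries of each lay beyond both controls. Assignment to genes by overlap gave the main value in all 8 tests. No call could change in any setting either, since the smallest p these tests can give is 0.0667. The replicate numbers do not pair the libraries. Of 90 alternatives for region counts, 75 stayed within 1.5 times. With peaks of at least 3-fold, the kept regions numbered 2 for both Mettl3 knockouts, 2 for KO1, 2 for KO2 and 8 for the cKO, and in KO2 0 were lost and 4 gained; Mettl3 control 1 then had 3 peaks in the 10 genes. Leaving out 1 library gave 0 to 2 gained regions for both Mettl3 knockouts (2 without Mettl3 control 2 or without KO1 1). For KO1 it gave 0 to 1 lost and 0 to 7 gained (7 without KO1 1, 3 without KO1 2, 2 without Mettl3 control 2, 1 lost without Mettl3 control 1). For KO2 it gave 1 to 2 lost (2 without Mettl3 control 1), and for the cKO 3 to 6 lost and 0 to 1 gained (6 without Ythdc1 control 2, 1 without cKO 1). The GGAC share was 11.8% within 25 nt and 48.4% within 100 nt, against 29.7% and 71.3% of all exonic summits in protein-coding genes. A peak absent from a list was not called at that depth and may still carry reads.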
